A study of Homo sapiens with 4 samples.

Results

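The genes described here are 10 collagen genes of the interstitial matrix, the connective tissue between cell layers. They were chosen by gene name from the 36359 genes of the count table: COL1A1, COL1A2, COL3A1, COL5A1 and COL5A2 encode fibrillar collagens, COL6A1, COL6A2 and COL6A3 encode the chains of collagen VI, COL12A1 encodes collagen XII, and COL18A1 encodes collagen XVIII. The RNA came from ACHN cells, an established human renal carcinoma line, in 2 groups of 2 libraries. The control group (siNC) received a negative control siRNA, and the other group (siPRR11) received siRNA against PRR11, which encodes a proline-rich protein of dividing cells, both delivered by lipid transfection. All 4 libraries thus share the line, the medium with serum and the transfection itself. ACHN cells are 1 line grown without stroma, which limits how far they model the matrix of a tumour. The labels do not say which siRNA sequence each siPRR11 library received, nor whether libraries of a group came from separate cultures, so the p-values measure only the spread between these libraries, which may be technical.

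A collagen is a trimer of chains that wind around each other, and each chain repeats a triplet that begins with glycine, the only residue small enough for the centre of the helix. In the fibrillar collagens the helix is long and unbroken. Collagen I joins a pair of COL1A1 chains with 1 COL1A2 chain, or COL1A1 chains alone, collagen III is made of COL3A1 alone, and collagen V, which nucleates fibrils and limits their width, joins COL5A1 and COL5A2. Collagen VI forms beaded filaments from COL6A1, COL6A2 and COL6A3 around many cells. Collagen XII sits on the surface of fibrils, and collagen XVIII, a chain with many breaks in its helix, lies where basement membrane meets the interstitial matrix and holds endostatin at its end.

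The repeat can be read in the exons. The sequences below are shown because each partner pair on which the comparisons turn (COL1A1 and COL1A2, COL5A1 and COL5A2, COL6A1 and COL6A2) carries the same repeat in a different gene, and because COL12A1 and COL18A1 carry it outside the fibrillar and collagen VI families. Each is the first coding exon, in the GENCODE 44 canonical transcript, of the gene's commonest length among multiples of 9 bases (9 bases encode 1 triplet) in which each triplet starts with a glycine codon, read 5′ to 3′ on the coding strand of GRCh38, with the glycine codon that starts each triplet in capitals.
COL1A1, coding exon 8, chr17:50197949-50198002, minus strand: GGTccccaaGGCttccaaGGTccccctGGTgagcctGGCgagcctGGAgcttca
COL1A2, coding exon 8, chr7:94404693-94404746, plus strand: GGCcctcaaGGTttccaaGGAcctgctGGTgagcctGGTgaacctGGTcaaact
COL5A1, coding exon 15, chr9:134753850-134753903, plus strand: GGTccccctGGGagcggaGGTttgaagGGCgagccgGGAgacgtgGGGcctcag
COL5A2, coding exon 6, chr2:189097277-189097330, minus strand: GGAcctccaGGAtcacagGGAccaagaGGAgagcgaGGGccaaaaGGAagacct
COL6A1, coding exon 15, chr21:45990979-45991041, plus strand: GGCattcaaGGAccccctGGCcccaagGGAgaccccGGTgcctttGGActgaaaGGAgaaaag
COL6A2, coding exon 11, chr21:46117874-46117936, plus strand: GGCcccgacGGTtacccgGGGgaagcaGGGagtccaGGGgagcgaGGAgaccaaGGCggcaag
COL12A1, coding exon 54, chr6:75103757-75103810, minus strand: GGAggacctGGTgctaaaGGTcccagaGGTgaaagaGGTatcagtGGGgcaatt
COL18A1, coding exon 10, chr21:45479902-45479964, plus strand: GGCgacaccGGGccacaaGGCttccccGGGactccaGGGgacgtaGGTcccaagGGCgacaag

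The COL1A1 and COL1A2 exons, both the 8th coding exon of their gene, had the same base at 40 of 54 positions. Exons of exactly 54 bases made up 21 of the 51 coding exons of COL1A1, 24 of 52 in COL1A2, 24 of 51 in COL3A1, 29 of 66 in COL5A1 and 24 of 54 in COL5A2. In the collagen VI genes the commonest multiple of 9 was 63 bases, with 7 such exons in COL6A1, 8 in COL6A2 and 7 in COL6A3. The longest unbroken stretch of glycine triplets separated the same families. It was 338 to 343 triplets in the fibrillar genes, 87 in COL6A1 and COL6A2, 45 in COL6A3, 32 in COL12A1 and 30 in COL18A1. COL18A1 held 14 separate stretches of at least 6 triplets, against 2 in each fibrillar gene.

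**Figure D1:**
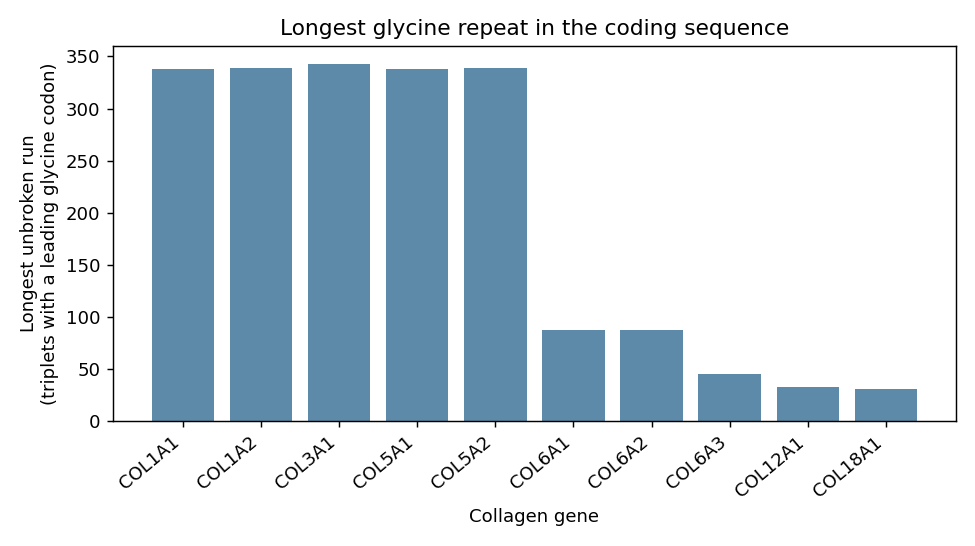
Glycine triplets in the coding sequence of the 10 interstitial collagen genes, read from the GENCODE 44 canonical transcripts: each gene's longest unbroken stretch of triplets, in triplets. The fibrillar genes reach 338 to 343 triplets and the other genes 30 to 87.

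Library totals ran from 59003839 to 92612749 counted reads, and the 10 genes took 0.0770% to 0.0799% of them. PRR11 itself was at 41.3 and 40.4 CPM (counts per 1000000 reads, scaled by edgeR's TMM factors) in siNC and at 15.3 and 14.02 in siPRR11, a fitted log2 fold change of -1.48 ± 0.09 (SE, adjusted p = 3.35e-06, edgeR quasi-likelihood test). Of 21630 genes tested, 3622 (16.7%) passed an adjusted p of 0.05, with 7.61% higher in siPRR11 and 9.14% lower. The split was 1645 higher against 1977 lower with counts, but 1091 against 684 with limma on log2(RPKM + 1). Of 8 renal epithelial markers 7 were tested, of which KRT18 rose, and KRT19 and EPCAM fell. KRT8 (log2 fold change 0.14), MET (0.09) and PAX8 (-0.22), all abundant, did not pass, and neither did PAX2 (-0.10). The untested marker, CDH6, had only 2 to 6 counts per library. The summed level of the list was 2671 to 3099 CPM in siNC and 2743 to 2913 in siPRR11. Of 9 fibroblast markers DCN, LUM, FAP, DPT and MFAP5 had at most 18 counts in any library. TCF21 had 12 to 18 counts, PDGFRA 14 to 54 and S100A4 213 to 434, and none of these passed. THY1 supplied most of that list's 464 to 495 CPM in siNC and 475 to 485 in siPRR11. PECAM1, CDH5, PTPRC and CD3E, markers of endothelial and blood cells, had at most 8 counts. Of the same list VWF had 12 to 30 counts, and CD68, a macrophage gene also found in other cells and named after its values were seen, was at 55.9 and 45.2 CPM in siNC and at 60.1 and 54.1 in siPRR11, with 81.7% of its exonic length shared with another gene on the same strand.

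Levels of the 10 genes were compared with each other as RPKM (reads per kilobase of exon per 1000000 counted reads, without TMM factors), since CPM does not correct for gene length. They spanned a wide range, and COL1A1 and COL12A1 changed places between the groups in the order of the means. COL18A1 was the highest, at 46.7 ± 0.776 RPKM in siNC and 45.7 ± 3.65 in siPRR11 (mean ± SD, n = 2 here and throughout), above 95.2% of the genes tested. COL6A2 (22.3 ± 2.07 and 18.2 ± 0.715) and COL6A1 (16.7 ± 0.664 and 14.1 ± 0.0778) followed. COL12A1 was at 8.61 ± 0.117 RPKM in siNC and 7.996 ± 0.456 in siPRR11. COL1A1, at 4.63 ± 0.465, lay below COL12A1 in both siNC libraries. In siPRR11 COL1A1 had a mean of 8.91 ± 1.496 RPKM, above that of COL12A1, but the library values of COL1A1 (9.97 and 7.85) and COL12A1 (8.32 and 7.67) overlapped. COL5A2 (2.41 ± 0.455 and 2.56 ± 0.129) and COL5A1 (0.745 ± 0.00493 and 0.480 ± 0.0213) came next. COL3A1, COL6A3 and COL1A2 were all below 0.1 RPKM, and 3.72% or fewer of the genes tested lay below each. The siNC ranges of COL3A1 (0.0455 and 0.0542) and COL6A3 (0.0429 and 0.0397) lay side by side.

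Between the groups, COL1A1 rose, COL5A1, COL6A1 and COL6A2 fell, and the other 6 genes did not pass the test. That is 4 of 10 called, against 16.7% of all genes tested, with 1 higher (all genes, 7.61%) and 3 lower (all genes, 9.14%). The siNC and siPRR11 libraries did not overlap for 7 of 10, against 58.4% of all genes. The median log2 fold change of the 10 was -0.19, against 0.00 over all genes tested. With a library left out, the log2 fold changes of the called genes kept their signs. They ran from 0.72 to 1.06 for COL1A1 and from -0.73 to -0.63 for COL5A1. For COL6A1 they ran from -0.34 to -0.25, and for COL6A2 from -0.44 to -0.25. In bulk RNA, fewer cells of a type and less RNA per cell cannot be told apart.

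**Figure D2:**
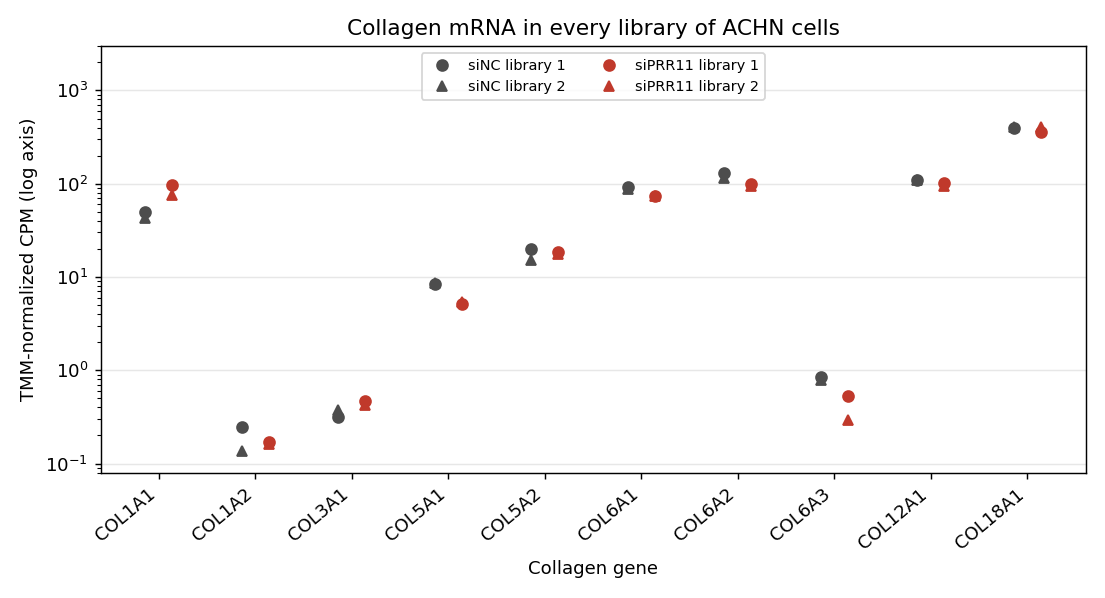
Level of each interstitial collagen gene in the 4 libraries, in TMM-scaled CPM on a log axis (not corrected for gene length), with siNC and siPRR11 in different colours and a marker shape for each library number. COL18A1 lies highest at 361.3 to 409.6 CPM, COL1A1 is higher in both siPRR11 libraries, and COL1A2, COL3A1 and COL6A3 lie at or below 0.856 CPM in every library.

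**Figure D3:**
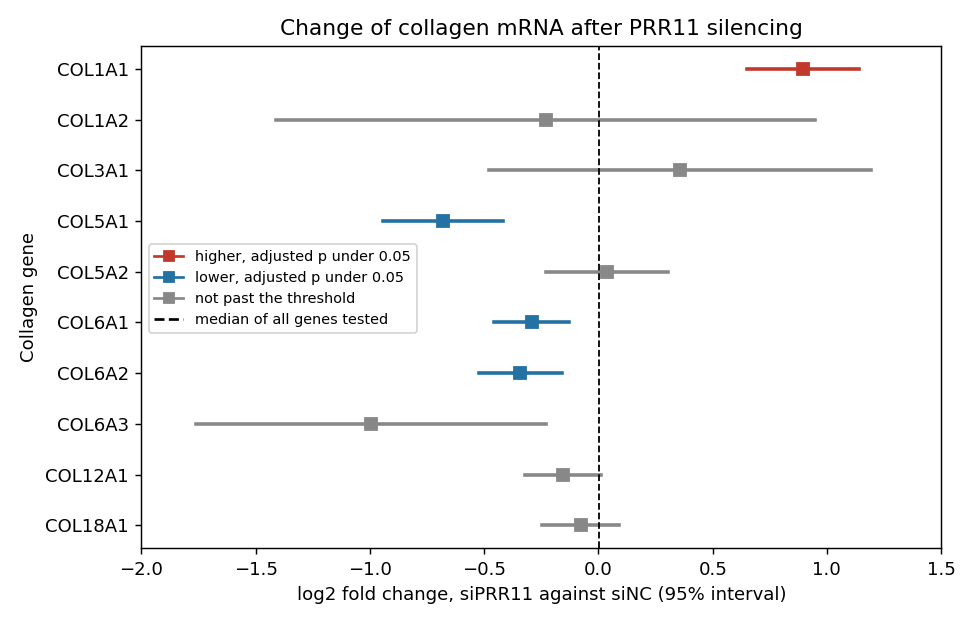
Log2 fold change of siPRR11 over siNC for the 10 interstitial collagen genes from edgeR's quasi-likelihood fit, with unadjusted 95% confidence intervals, red for higher and blue for lower past an adjusted p of 0.05, grey for the rest, and a dashed line at the median of all genes tested. COL1A1 lies at 0.90, COL5A1, COL6A1 and COL6A2 lie at -0.68, -0.29 and -0.34, and the widest intervals belong to COL1A2, COL3A1 and COL6A3, which had few counts.

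COL1A1, the major chain of collagen I (chr17:50183289-50201632, minus strand), was at 49.5 and 43.0 CPM in siNC and at 96.2 and 76.0 CPM in siPRR11. Both siPRR11 libraries lay above both siNC libraries, although they also lay further apart from each other. The fitted level was 1.86-fold higher in siPRR11 (log2 fold change 0.90 ± 0.11 SE, 95% interval 0.65 to 1.14, adjusted p = 0.000329), higher than the fold change of 96.7% of genes tested. The call held in 11 of 11 alternative fits, where the log2 fold change ran from 0.72 to 1.06. COL1A1 supplied 4.76% and 4.30% of the summed RPKM of the 10 genes in the siNC libraries and 10.2% and 7.96% in the siPRR11 libraries.

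COL1A2, its partner in heterotrimeric collagen I (chr7:94394561-94431232, plus strand), had 20 and 8 counts in siNC and 16 and 14 counts in siPRR11. As CPM these were 0.245 and 0.138 against 0.170 and 0.164, so the siPRR11 libraries fell between the siNC libraries. The log2 fold change was -0.23 with a 95% interval of -1.41 to 0.95 (adjusted p = 0.818), so a change of the size measured for COL1A1 could not be told from none at this depth. Without siNC replicate 1 its sign turned, to 0.27. COL3A1, the single chain of collagen III (chr2:188974320-189012746, plus strand), had 26 and 22 counts in siNC and 44 and 36 in siPRR11. These were 0.318 and 0.379 CPM against 0.467 and 0.421. The groups did not overlap, but the log2 fold change of 0.36 (95% interval -0.48 to 1.19) did not pass the test (adjusted p = 0.582). Low counts were coarse in these libraries: of genes with 1 to 20 counts 76.5% to 78.1% had an even count, against 51.5% to 52.4% of genes over 1000 counts. The bearing of this on the low genes was not tested.

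Of the collagen V chains COL5A1 fell, and COL5A2 did not pass the test. COL5A1 (chr9:134641774-134844843, plus strand) was at 8.43 and 8.52 CPM in siNC and at 5.11 and 5.46 in siPRR11, with a gap between the groups far larger than that within them. It fell to 62.4% of the control level (log2 fold change -0.68 ± 0.12 SE, 95% interval -0.94 to -0.42, adjusted p = 0.00269). The call held with each library left out in turn, where the lone library of a group is assumed to vary like the other group, and was lost with limma on log2(RPKM + 1), at -0.24 and an adjusted p of 0.0612, and with log2(RPKM + 0.1), at -0.54 and an adjusted p of 0.0906. COL5A2 (chr2:189031896-189179879, minus strand), whose gene lies 19.1 kb from COL3A1, was at 19.9 and 15.2 CPM in siNC and at 18.7 and 17.4 in siPRR11. The siPRR11 values fell within the siNC range, and the log2 fold change was 0.04 with a 95% interval of -0.23 to 0.31 (adjusted p = 0.872). Its sign turned without siNC replicate 2 (-0.14) and without siPRR11 replicate 1 (-0.009).

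Of the collagen VI chains, the abundant COL6A1 and COL6A2 fell by small amounts. COL6A1 (chr21:45981737-46005050, plus strand) was at 93.3 and 88.3 CPM in siNC and at 73.7 and 74.6 in siPRR11. It fell to 81.7% of control (log2 fold change -0.29 ± 0.07 SE, 95% interval -0.45 to -0.13, adjusted p = 0.0197). COL6A2, which starts 93.05 kb past the end of COL6A1 on the same strand (chr21:46098097-46132849), was at 129.9 and 114.0 CPM in siNC and at 98.8 and 93.7 in siPRR11. It fell to 78.9% of control (log2 fold change -0.34 ± 0.08 SE, 95% interval -0.52 to -0.16, adjusted p = 0.0154). For both genes the siPRR11 libraries lay below the siNC libraries. The COL6A1 call was lost without siPRR11 replicate 1 (adjusted p = 0.161) or replicate 2 (0.126), and the COL6A2 call without siPRR11 replicate 2 (0.104). Both were also lost with limma on log2(RPKM + 1), at adjusted p of 0.0743 and 0.0948.

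COL6A3, the longest chain of collagen VI (chr2:237324003-237414375, minus strand), had 70 and 46 counts in siNC and 50 and 25 in siPRR11. These were 0.856 and 0.793 CPM against 0.530 and 0.292, so the groups did not overlap and the siPRR11 libraries lay well apart from each other. The log2 fold change was -0.996 ± 0.35 SE with a 95% interval of -1.76 to -0.23, and the adjusted p over all genes was 0.0748. Without siPRR11 replicate 1 it was -1.49 and passed (adjusted p = 0.0291), and it also passed with no filter on low counts (-0.99, adjusted p = 0.0131).

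COL12A1, the fibril-associated chain (chr6:75084326-75206051, minus strand), was at 110.3 and 108.3 CPM in siNC and at 102.0 and 94.4 in siPRR11. Both siPRR11 values were lower, but the log2 fold change of -0.16 (95% interval -0.32 to 0.01) did not pass (adjusted p = 0.191). COL18A1, the chain that releases endostatin (chr21:45405137-45513720, plus strand), was at 399.6 and 409.6 CPM in siNC and at 361.3 and 405.7 in siPRR11. The groups overlapped, and the log2 fold change was -0.08 with a 95% interval of -0.25 to 0.09 (adjusted p = 0.551). It turned to 0.006 without siPRR11 replicate 1. Exons of SLC19A1 on the opposite strand cover 16.4% of the exonic length of COL18A1, and since the strand setting of the counting is not given in the sources used here, reads there cannot be assigned to either gene with certainty. The other 9 genes had no exonic overlap with another annotated gene. The genes whose level over the 4 libraries ran closest to that of COL18A1, out of 14192 compared by Euclidean distance between centred log2 CPM, were PYGB (0.0080), KDELR1 (0.0115) and SLC10A3 (0.0121). With so many genes and only 4 libraries, close matches to a gene that changed little are likely, and shared regulation was not tested.

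Ratios of RPKM within a library show the balance of chains that assemble together, as transcripts and not as protein. The COL1A1 to COL1A2 ratio was 229.8 and 353.9 in siNC and 643.8 and 527.4 in siPRR11, so the COL1A1 level was far above that of its partner in each library. The ratio differed by 1.03 on the log2 scale, from 0.72 to 1.34 with a library left out. With 8 to 20 COL1A2 counts per library its denominator is imprecise. The COL5A1 to COL5A2 ratio was 0.272 and 0.359 in siNC and 0.175 and 0.200 in siPRR11, a log2 difference of -0.74, from -0.94 to -0.54 with a library left out.

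The COL6A1 to COL6A2 ratio stayed within 0.724 to 0.802 across all 4 libraries, with siNC at 0.724 and 0.781 and siPRR11 at 0.752 and 0.802, so the groups overlapped. COL6A3 was far below both partners. COL6A1 exceeded it by 400.1-fold and 408.8-fold in siNC and by 510.9-fold and 937.2-fold in siPRR11. COL6A2 exceeded it by 552.8-fold and 523.8-fold in siNC and by 679.0-fold and 1168.8-fold in siPRR11. The high value of siPRR11 replicate 2 rests on 25 COL6A3 counts, and without that library the log2 differences were 0.34 and 0.34 in place of 0.77 and 0.73. The ratio of COL1A1 to COL5A1, chosen after their values were seen, was 6.69 and 5.75 in siNC and 21.4 and 15.9 in siPRR11. With 2 libraries per group an exact two-sided permutation test of any such ratio cannot go below p = 0.333, so no ratio was tested.

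The summed RPKM of the 10 genes was 104.3 and 100.02 in siNC and 97.4 and 98.7 in siPRR11. COL18A1 supplied 44.2% to 48.9% of it in the 4 libraries. The 6 type IV chains, which form the network of basement membranes and were far more abundant, summed to 802.9 and 746.5 RPKM in siNC and to 524.0 and 525.7 in siPRR11. Of them COL4A1 (-1.34), COL4A3 (-0.77), COL4A4 (-1.71) and COL4A6 (-0.68) fell by log2 fold change, while COL4A2 (-0.20) and COL4A5 (-0.13) did not pass. Without siPRR11 replicate 1 the COL4A6 call was lost.

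Among the 17 tested of 28 other collagen genes, 1 rose and 4 fell, or 29.4% called against 16.7% of all genes, with a median log2 fold change of -0.21. COL8A1, a short-chain collagen, was at 165 and 166 CPM in siNC and at 120.1 and 116 in siPRR11 (log2 fold change -0.49, adjusted p = 0.000897). COL13A1, a transmembrane collagen, fell by 1.48 on the log2 scale (adjusted p = 8.02e-05). Both calls held in every alternative fit. COL24A1, a minor fibrillar chain, was at 1.39 and 1.17 CPM in siNC and at 1.92 and 2.64 in siPRR11 (log2 fold change 0.82, adjusted p = 0.0274), a call lost without siPRR11 replicate 2. COL9A2 (-0.93) and COL25A1 (-2.44, with 20 and 22 counts against 6 and 4) also fell. The COL9A2 call was lost without siNC replicate 1 or siPRR11 replicate 1, and the COL25A1 call without siNC replicate 2 or either siPRR11 library. Without siPRR11 replicate 2 the log2 fold changes were -0.46 for COL8A1, -1.45 for COL13A1, 0.57 for COL24A1, -0.97 for COL9A2 and -2.25 for COL25A1.

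Of 22 tested genes that fold or modify collagen chains, 2 rose and 2 fell, or 18.2% called, close to the 16.7% of all genes (median log2 fold change -0.05). P4HA3, a catalytic subunit of the prolyl hydroxylase that stabilises the helix, rose by 0.61 on the log2 scale (adjusted p = 0.000659), and P3H4, which belongs to a lysyl hydroxylation complex, fell by 0.69 (adjusted p = 0.000675). MIA2 was called higher (0.55), but 63.7% of its exonic length is shared with another gene on the same strand. The MIA2 call was lost without siPRR11 replicate 1. PPIB, a proline isomerase, was called lower (-0.28), a call lost without siNC replicate 1 or without either siPRR11 library. P4HB (-0.16), the partner subunit of the prolyl hydroxylases, and CRTAP (-0.29, adjusted p = 0.052), both abundant, did not pass; CRTAP passed without siNC replicate 1 or siPRR11 replicate 2, and P4HB without siNC replicate 2. Without siNC replicate 2, 9 of the 22 genes were called, and 4032 of 22773 over all genes.

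Of 6 tested genes listed for procollagen propeptide processing, 3 rose and 2 fell, or 83.3% called against 16.7% of all genes (median 0.25). The list holds proteases that cleave the end propeptides, which lets fibrils form, with their enhancers and relatives. BMP1, the procollagen C-proteinase, was at 32.9 and 30.7 CPM in siNC and at 43.1 and 41.7 in siPRR11 (log2 fold change 0.41, adjusted p = 0.00599). The N-proteinases ADAMTS3 (0.37) and ADAMTS14 (1.21) rose, while TLL2 (-0.52), a relative of BMP1, and PCOLCE2 (-0.86), an enhancer of the C-proteinase, fell. The ADAMTS3 call was lost without siNC replicate 1 or siPRR11 replicate 2, and that of ADAMTS14 without siPRR11 replicate 1. Of 6 crosslinking genes only TGM2, a transglutaminase, passed (-0.33), the same 16.7% as over all genes. The TGM2 call was lost without either siPRR11 library, and its log2 fold change ran from -0.37 to -0.30 with a library left out. LOXL2, a lysyl oxidase, was at 483 and 468 CPM in siNC and at 454 and 487 in siPRR11.

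Of 15 tested fibril regulators and interstitial matrix genes, 3 rose and 3 fell, or 40% called against 16.7% of all genes (median 0.01). EFEMP2 (-0.76), an elastic fibre protein, kept its call in every alternative fit. BGN (1.09), a small proteoglycan that binds collagen I, FBLN1 (0.36) and CCN2 (0.41), a matricellular growth factor, rose, while FN1 (-0.29), fibronectin, and THBS1 (-0.24), thrombospondin, fell. BGN had 24 to 99 counts per library, and its call was lost with DESeq2 and with limma on log2(RPKM + 0.1). Both limma fits lost the FN1, FBLN1 and THBS1 calls, and log2(RPKM + 1) that of CCN2. The THBS1 call was also lost with at least 10 counts in every library. The FN1 and BGN calls were lost without siNC replicate 2 or siPRR11 replicate 2. Those of FBLN1 and THBS1 were lost without either siPRR11 library, and that of THBS1 also without siNC replicate 2. SPARC and VCAN, both abundant, did not pass.

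Of 12 tested collagen receptors, 1 rose and 3 fell, or 33.3% called against 16.7% of all genes (median -0.01). ITGA1, the alpha chain of a collagen-binding integrin, was at 57.0 and 59.2 CPM in siNC and at 82.7 and 77.5 in siPRR11 (log2 fold change 0.46, adjusted p = 0.00197). Its partner ITGB1 (-0.34), the anthrax toxin receptor ANTXR2 (-0.69), which binds collagen, and the proteoglycan SDC1 (-0.54) fell. Both limma fits lost the ITGB1 and ANTXR2 calls, while ITGA1 and SDC1 kept theirs in every alternative fit. Of 6 tested proteases that degrade collagen none rose and 3 fell, or 50% called against 16.7% of all genes (median -0.36). These were the cathepsins CTSL (-0.64) and CTSB (-0.41), called in every alternative fit, and MMP14 (-0.30), a membrane-bound collagenase whose call was lost without either siPRR11 library. MMP1, the interstitial collagenase, named after its values were seen, had 24 and 13 counts in siNC and 67 and 41 in siPRR11, with no overlap between the groups as CPM, but did not pass (log2 fold change 1.18, adjusted p = 0.0632). It was called higher with no filter, with at least 10 counts in every library and with the replicate block.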

How the data were processed

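RNA of 2 siNC and 2 siPRR11 samples of ACHN cells was sequenced from 2 μg inputs with a stranded kit. The authors used Trimmomatic 0.36 to trim reads, STAR to place them on GRCh38 and featureCounts (Subread 1.5.1) to sum them per gene. The annotation release and the strand setting are not given in the sources used here. The deposited counts per gene are whole numbers. The deposited RPKM values are the authors' counts per kilobase per 1000000 counted reads. Among genes above 50 counts throughout, they equalled count over length and total within 3.08e-06%. The number of sample columns not used was 0.

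Counts were filtered with filterByExpr, which left 21630 of 36359 genes, scaled by TMM and tested with edgeR 4.0.16 (quasi-likelihood F-test, group only, R 4.3.3), with Benjamini-Hochberg adjustment over all genes tested and a threshold of 0.05. The printed 95% intervals are unadjusted. RPKM served for levels and ratios between genes. Alternatives used RLE scaling, DESeq2 1.42.0, no filter, at least 10 counts in every library, a replicate block, limma 3.58.1 on log2(RPKM + 1) and log2(RPKM + 0.1), and each library left out, which leaves 1 library in that group, assumed to vary like the other group. Coding exons and their sequences came from GENCODE 44 on GRCh38. Overlaps between genes were computed from the exon coordinates given with the deposited counts, whose annotation release is not known.

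The members and gene lists were chosen with earlier results of these data known. Named genes were PRR11, all members, the type IV chains, up to 4 called genes per list and direction by adjusted p, listed genes averaging 8 or more in log2 CPM, marker genes at or near 0 or called, and the 3 genes closest in profile to the member with the highest RPKM. The markers PAX2 and S100A4 are named besides, so that the tested markers of their lists are complete. COL9A1, MEP1A, FMOD, ASPN, COMP, MMP8, MMP13 and HBB were not analysed here, and 1 gene was left out of the renal marker list and is not reported here. CCN2 is listed in the table under its older symbol, CTGF.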

Additional observations from a re-analysis of the deposited data

How the results depend on the processing

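The number of interstitial collagen genes called was 1 with limma on log2(RPKM + 1), 1 with log2(RPKM + 0.1) and 2 to 4 with a library left out. With limma on log2(RPKM + 1) and log2(RPKM + 0.1), the counts called were 2 and 2 of the other collagens, 2 and 2 of the folding genes, 3 and 2 of the propeptide-processing genes, 0 and 0 of the crosslinking genes, 2 and 2 of the fibril and matrix genes and 2 and 2 of the receptors, and log2(RPKM + 0.1) called 2 of the type IV chains. Limma called 1775 and 1878 of all genes. With a library left out, 3 to 7 of the other collagens, 3 to 4 of the type IV chains, 3 to 9 of the folding genes, 0 to 3 of the crosslinking genes and 2 to 6 of the fibril and matrix genes were called, and 2172 to 4590 of all genes. With no filter the folding genes called were 8 and the crosslinking genes 2, and 4460 of 34506 over all genes. The crosslinking genes called were also 2 with at least 10 counts in every library and 2 with DESeq2. Over all genes these fits called 3779 of 19664 and 3537 of 21630.

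With the replicate number as a block, 6988 of all genes were called, with 8 of the other collagens, 10 of the folding genes, 3 of the crosslinking genes and 8 of the receptors. COL6A3 (adjusted p = 0.0101, and 0.0131 with no filter) and COL12A1 (adjusted p = 0.0486) then passed, and no call among the 10 interstitial collagens was lost. Deviations from the group means correlated at 0.491 between libraries of the same number. With 2 libraries per group, the value for different numbers (-0.491) is fixed as its negative and adds nothing. With only 2 pairs and no label that ties them, it cannot be told whether libraries of the same number share more than that number.

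Signs turned for COL1A2 (0.27 without siNC replicate 1, from -0.55 to 0.27 with a library left out), COL5A2 (-0.14 without siNC replicate 2 and -0.009 without siPRR11 replicate 1, from -0.14 to 0.25), COL18A1 (0.00561 without siPRR11 replicate 1, from -0.16 to 0.00561), the COL6A1 to COL6A2 ratio (-0.00695 without siNC replicate 1, from -0.00695 to 0.10, a ratio added after seeing the data), SPARC (-0.0418 without siNC replicate 2, from -0.0418 to 0.0962), LOXL2 (0.0319 and 0.0323 with the limma fits, 0.00595 without siNC replicate 1, from -0.0656 to 0.0361), KRT8 (-0.00241 without siNC replicate 2, from -0.00241 to 0.29), MET (-0.0484 without siNC replicate 1, from -0.0484 to 0.23) and THY1 (0.000445 with RLE scaling, 0.00721 with at least 10 counts in every library, 0.0468 and 0.0473 with the limma fits, 0.000429 with DESeq2, from -0.0510 to 0.0438 with a library left out). The cause was not tested. None of these genes passed the test in the main comparison. COL1A2 gave no value with at least 10 counts in every library. DESeq2 gave no adjusted p for COL1A2, for COL3A1 or, among the other collagens, for COL25A1. Of 35 called genes of the other lists, 16 kept the call in all 11 alternatives. Depth limits COL1A2, COL3A1 and COL6A3, which had 8 to 70 counts per library.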
